A study of Canis lupus familiaris with 6 samples.

Results

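Knockdown of PRL1 was carried out in 3 lines of MDCK cells, a kidney epithelial line of the dog, and the comparison described here asks where the response of 2 PRL-deficient clones differed from that of wild-type cells. One line was wild type. The others were clone 1 and clone 2, each a single clone with the genotype PRL2-/-; PRL1+/-, so both lack PRL2 and keep 1 allele of PRL1. All lines received either control siRNA or PRL1-siRNA in 2 rounds, with RNA extraction 18 h later. Each line and treatment gave 1 library of poly(A)-selected RNA, 6 in all, which leaves a single wild-type pair. The response of a line is its knockdown value minus its control value on the log2(FPKM + 1) scale, where FPKM is the number of sequenced fragments scaled for transcript length and for library size. Levels below are given as the control value, then the knockdown value. The wild-type response was then subtracted from that of each clone. Of 41401 gene symbols, 12125 averaged 1 FPKM or more across the libraries and counted as measured. Among them 135 genes differed from wild type by at least 0.5 log2 units in the same direction in both clones, which is 1.11% of those measured. The threshold of 0.5 was added to make the rule workable.

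The PRL proteins are small phosphatases anchored to membranes, PRL1 being the product of PTP4A1 and PRL2 that of PTP4A2. They bind the CNNM family of magnesium transporters and limit magnesium efflux, and PRL levels themselves respond to magnesium. The series concerns cell death that depends on NF-κB when cellular magnesium falls. NF-κB is a family of transcription factors that switch on cytokine, chemokine and survival genes, and epithelial cells of the renal tubule are one source of such cytokines during injury.

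The siRNA target was lower after knockdown in each line, and by similar amounts. PTP4A1 was at 63.5 then 33.1 FPKM in wild-type cells, 61.7 then 37.8 in clone 1, and 69.9 then 37.8 in clone 2, so the knockdown left 0.521, 0.612 and 0.541 of the control level. The difference between clones and wild type was 0.14 ± 0.14 log2 units (SE, limma). PTP4A2 was at 72.7 then 59.0 FPKM in wild-type cells, 80.4 then 69.1 in clone 1, and 56.7 then 48.3 in clone 2, a difference of 0.08 ± 0.44. A transcript level does not show whether a small change in sequence disables the protein, so PTP4A2 does not check the genotype labels. The kidney list mixed high and low genes. EPCAM, KRT8 and KRT18 were above 100 FPKM in the 6 libraries, CDH16 was at 3.08 to 7.82, LHX1 at 0.976 to 1.87 and GATA3 at 0.880 to 2.69, and EMX2 did not exceed 0.451, while the leukocyte genes PTPRC, CD3E, CD3D and MS4A1 were listed at 0 throughout. COL5A1 of the fibroblast list and FLT1 of the endothelial list were measured, at 7.18 to 23.6 and 6.06 to 23.8 FPKM, whereas COL1A1, DCN and PECAM1 did not exceed 0.0602 FPKM. Both COL5A1 and FLT1 were higher in each clone library than in either wild-type library, and their part in the results was not tested. Absolute depth is unknown from FPKM. With the wild-type control as 1, relative depth read from the lowest values was between 0.766, in the knockdown library of clone 1, and 0.914, in the control library of clone 2.

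No gene passed the test of the difference in the main fit, which had no term for the clone. Limma on the 4 groups called 0 of 12125 genes (0%) at an adjusted p of 0.05, with a smallest adjusted p of 0.474 and 136 genes at an unadjusted p under 0.05. Those 4 at the smallest value were unnamed loci above 0 FPKM only in the wild-type control library. Each other measured gene named here had an adjusted p of 1.00 in that fit. With the clone as block, which uses the fact that control and knockdown libraries of a clone are a pair, 1 gene passed (0.00825%), TXNIP, and 1228 genes had an unadjusted p under 0.05. In both fits the spread comes from the clones, and the lone wild-type pair was assumed to vary like them. Unless the block is named, SEs above and below are from the fit without it and include gaps in level between the clones. For PTP4A2 the SE was 0.44 without the block and 0.06 with it. The spread between clones was of the same size as the quantity described. Over the measured genes, the SD of the difference in response was 0.323 for clone 1 minus wild type, 0.296 for clone 2 minus wild type and 0.327 for clone 1 minus clone 2. Differences of at least 0.5 in either direction numbered 325, 366 and 270. Both differences from wild type use the same wild-type libraries, so an error in that pair enters both with the same sign, and agreement of the clones in them is no replicate check of wild type. Genes below were chosen by their values, so their differences are given as a description.

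**Figure D1:**
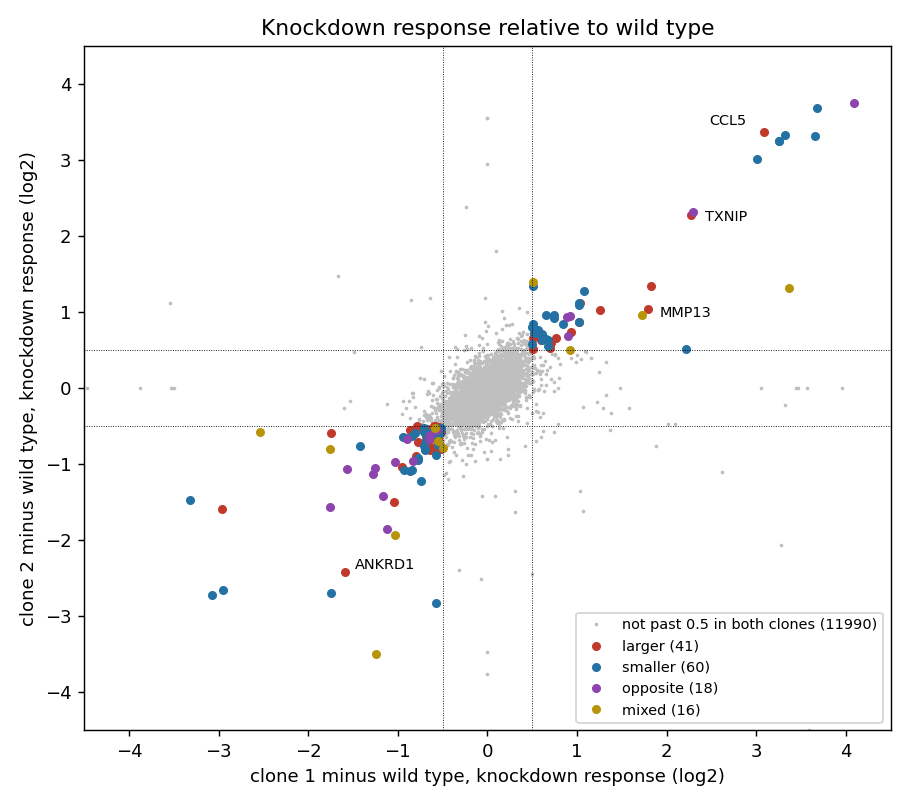
Difference in knockdown response from wild type for each of 12125 measured genes, clone 1 on the x axis and clone 2 on the y axis, both in log2 units. Dotted lines mark 0.5, colours mark the classes of the 135 genes past it in both clones, and 18 genes lie outside the axis range of 4.5; most genes sit near 0, and TXNIP and CCL5 are among the few named genes far out in the upper right.

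Of the 135 genes, 53 (0.437% of those measured) responded above wild type in both clones and 82 (0.676%) below it. A response was called opposite where both clones moved one way and wild type the other, each by at least 0.25, which held for 18 genes (0.148%). It was called larger where the response of both clones exceeded that of wild type in size, whatever its sign, for 41 genes (0.338%), and smaller where it was less in size, for 60 genes (0.495%). In 15 of the 41 the wild-type response had the other sign, at a size under 0.25. The remaining 16 (0.132%), called mixed, met none of these definitions. For 119 of the 135, the gap between the clones was below the smaller of their differences from wild type. The selection of these genes and the shared wild-type pair favour such a count, so it is no check of agreement. In 25 genes wild type responded by at least 0.5 and both clones by under 0.25, and in 16 genes wild type responded by under 0.25 and both clones by at least 0.5. Just inside the threshold lay CD55, with differences of -0.60 and -0.50, and MX1, with 0.50 and 0.80. Just outside were LAMA3, with 0.50 and 0.87 (the first being 0.499), and MGAT5, with -0.50 and -0.72 (the first being -0.496).

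Genes with recognised names made up 59 of the 135. The other 76 (56.3%, against 13.4% of all measured genes) carried locus numbers or the names of small RNAs. By RefSeq biotype, 36 members (26.7%) were small RNAs of the classes snoRNA, snRNA, guide RNA, miRNA or tRNA, against 81 of the 12125 measured genes (0.668%). Protein-coding genes were 65 of the members (48.1%) and 90.8% of all measured. In addition 12 members were pseudogenes and 11 were long noncoding RNAs. The small RNAs were evenly split, 18 above and 18 below wild type. Of the 27 members listed at 0 in at least 1 library, 26 were small RNAs. Such RNAs are short and mostly lack a poly(A) tail, while the libraries were made from poly(A) RNA; the part of this in their differences was not tested. Members were also lower in level than the rest, with a median mean level of 4.15 FPKM against 12.3 for all measured genes. Opposite responses held few recognised genes: 3 of 18 were protein-coding, 5 were small RNAs, 4 were pseudogenes and 6 had no RefSeq match.

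Among recognised genes with a larger upward response, CCL5, TXNIP, IL6 and MMP13 had the largest differences, and the unnamed locus LOC119872420 and MIR8897 were among the 6 largest of the class. TXNIP encodes a thioredoxin-binding protein that restrains glucose uptake and is switched on by the glucose-sensing factor MondoA. It was at 8.43 then 25.9 FPKM in wild-type cells, 6.0 then 95.6 in clone 1, and 11 then 165 in clone 2. The knockdown library was 3.08 times its control in wild type and 15.9 and 15 times in the clones. Control libraries of the 3 lines lay between 6.0 and 11 FPKM, and the knockdown libraries of both clones were well above that of wild type. On the log2 scale the clones exceeded wild type by 2.27 each, a difference of 2.27 ± 0.06 with the clone as block (SE, limma, adjusted p = 0.0242) and 2.27 ± 0.69 without it. The 2 clones' responses differed by only 8.1e-05 log2 units. The blocked SE therefore comes mostly from the spread of other genes, through limma's moderation, and it includes no replicate of wild type. With no filter on low genes the blocked adjusted p was 0.189. Without the block, leaving out 1 mutant library in turn gave differences of 1.88 to 2.66. Of the other 8 measured genes of the MondoA and arrestin list, none was past 0.5 in both clones.

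CCL5, a chemokine that draws T cells and monocytes, was close to 0 in wild type under both siRNAs, at 0.0713 and 0.467 FPKM. Clone 1 had 0.0445 then 11.1 FPKM, and clone 2 had 0.643 then 22.1. Only the knockdown libraries of the clones exceeded 1 FPKM. The clones were above wild type by 3.08 and 3.36 log2 units, a difference of 3.22 with an SE of 0.72 in the fit without the block. In the limma fit with the clone as block the SE was 0.18 and the adjusted p 0.0601. IL6, the acute-phase cytokine, was at 0.248 then 0.972 FPKM in wild-type cells, 0.0939 then 2.55 in clone 1, and 0.825 then 5.27 in clone 2. Its difference was 1.04 in clone 1 and 1.12 in clone 2, although the control library of clone 2 was near the wild-type knockdown level. In the fit without the block, the mean of 1.08 became 0.67 when the knockdown library of clone 2 was left out. IL34, a ligand of the macrophage growth factor receptor CSF1R, was at 1.54 then 3.27 FPKM in wild-type cells, 1.97 then 7.12 in clone 1, and 2.86 then 8.34 in clone 2. It was past the threshold narrowly in clone 2, by 0.70 and 0.52 log2 units, and with a pseudocount of 0.1 it was not (0.76 and 0.47).

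**Figure D2:**
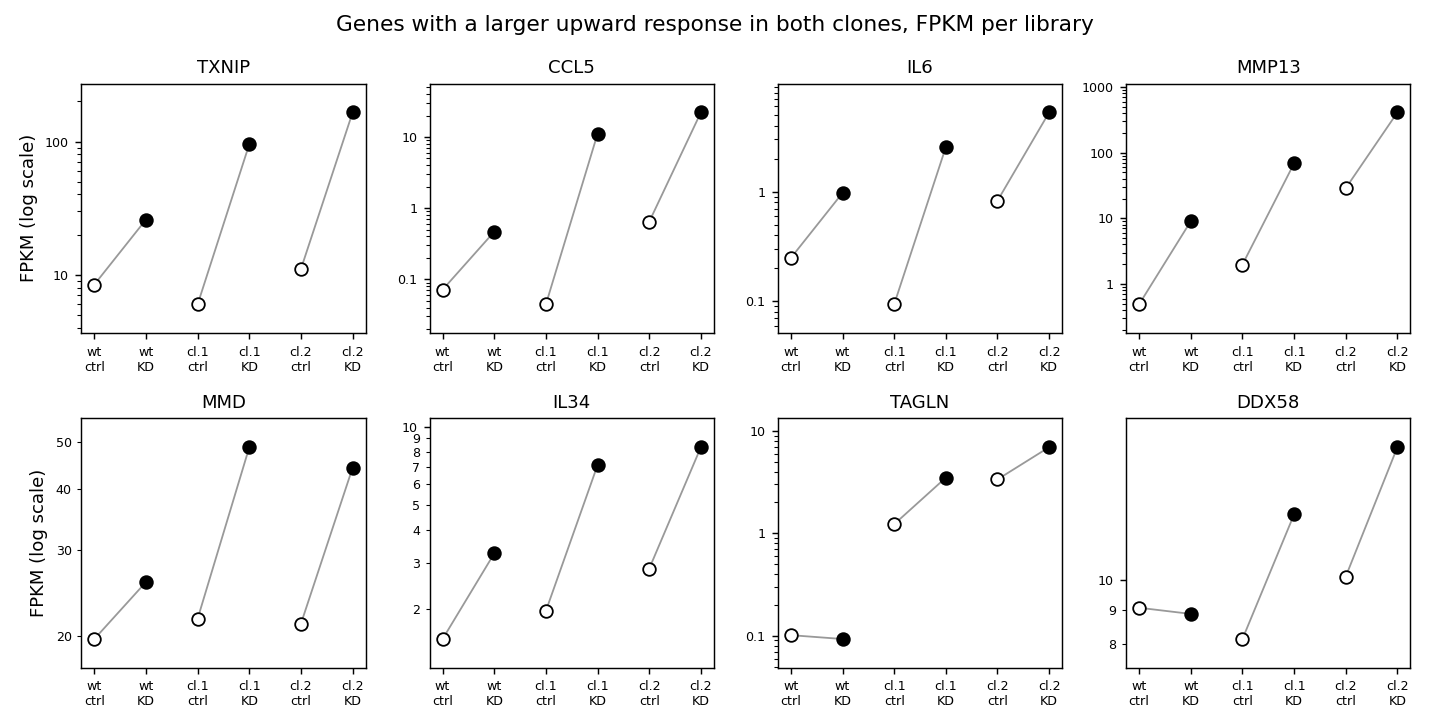
FPKM on a log axis in the 6 libraries for 8 genes with a larger upward response in both clones, open circles for control siRNA (ctrl) and filled circles for PRL1-siRNA (KD), with a line joining the libraries of wild type (wt), clone 1 (cl.1) and clone 2 (cl.2). TXNIP has control levels of 6.0 to 11 FPKM and steeper lines in both clones. The control levels of MMP13 differ more, 0.492 FPKM in wild type and 28.8 in clone 2.

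MMP13, a collagenase of the extracellular matrix, was higher after knockdown in each line. It was at 0.492 then 9.05 FPKM in wild-type cells, 1.98 then 68.7 in clone 1, and 28.8 then 410 in clone 2. As ratios of knockdown to control these were 18.4, 34.8 and 14.2, so the clones stood on either side of wild type. On the log2(FPKM + 1) scale both were above wild type, by 1.80 and 1.03, and with a pseudocount of 0.1 the values were 1.10 and -0.12. The difference of 1.42 had an SE of 2.59 without the block, where the unlike levels of the clones enter, and of 0.33 with it (limma). In the fit without the block, the difference became -0.25 when the control library of clone 1 was left out.

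Other genes of this class had various roles. MMD, a membrane protein of the progestin and adipoQ receptor family, was at 19.7 then 25.8 FPKM in wild-type cells, 21.7 then 48.8 in clone 1, and 21.2 then 44.3 in clone 2. It was the named gene with the smallest unadjusted p above wild type, with a difference of 0.71 ± 0.12 (SE, limma). TAGLN, which encodes the actin-binding protein transgelin, was at 0.101 then 0.0930 FPKM in wild-type cells, 1.23 then 3.50 in clone 1, and 3.36 then 6.93 in clone 2. ACTA2, smooth muscle actin, was at 0.201 then 0.363 FPKM in wild-type cells, 0.275 then 1.76 in clone 1, and 1.60 then 3.93 in clone 2. The difference was 0.95 ± 0.80 for TAGLN and 0.84 ± 0.84 for ACTA2 (SE, limma), and neither exceeded 0.363 FPKM in wild type. With the clone as block the SEs were 0.15 and 0.18. DDX58, which encodes the viral RNA sensor RIG-I, was level in wild type at 9.08 and 8.89 FPKM and higher after knockdown in clone 1 (8.15 and 12.6) and clone 2 (10.1 and 15.9).

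Larger downward responses in both clones were found in 21 genes with recognised names. CCN1, a secreted matrix protein and a standard target of the Hippo pathway factors YAP and TAZ, was at 99.8 then 41.4 FPKM in wild-type cells, 196 then 52.1 in clone 1, and 167 then 39.3 in clone 2. The 3 knockdown libraries were alike, and the control libraries of both clones were above that of wild type. Its response was below wild type by 0.64 and 0.82 log2 units, a difference of -0.73 ± 0.30 (SE, limma). ANKRD1, a cofactor and another YAP target, was at 2.48 then 0.0118 FPKM in clone 1, and 11.1 then 0.977 in clone 2. In wild type it was low throughout, at 0.199 then 0.0535 FPKM. Its difference of -2.01 had an SE of 1.27 without the block and of 0.38 with it. In the fit without the block, leaving out the clone 2 control gave -1.11, and leaving out the clone 1 control gave -2.91. Of 22 measured YAP and TAZ targets, these 2 were past 0.5 below wild type and 0 above, and at a threshold of 0.25 the counts were 3 and 0. Over all measured genes, 0.437% were past 0.5 above wild type and 0.676% below, and 2.31% were past 0.25 above and 3.98% below. The list's median response was -0.27 in wild type, -0.25 in clone 1 and -0.38 in clone 2.

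SORBS2, an adaptor of the actin cytoskeleton, was at 9.75 then 7.46 FPKM in wild-type cells, 49.6 then 22 in clone 1, and 67.8 then 28.2 in clone 2. In every library of the clones it was above both wild-type libraries, and the differences in response were -0.79 and -0.89. GRHL3, an epithelial transcription factor, had the same order of levels, at 2.12 then 1.66 FPKM in wild-type cells, 9.02 then 4.38 in clone 1, and 8.45 then 4.55 in clone 2. DOK7, an adaptor of receptor kinase signalling, was at 17.9 then 17.3 FPKM in wild-type cells, 31.2 then 19.6 in clone 1, and 16.1 then 8.56 in clone 2.

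Several genes of this class barely moved in wild type. JUN, a subunit of the AP-1 transcription factor, was at 32.0 then 28.7 FPKM in wild-type cells, 24.5 then 14.2 in clone 1, and 26.6 then 15.2 in clone 2. Its difference of -0.60 ± 0.13 (SE, limma) had, after IMMP2L, the smallest unadjusted p among named genes below wild type. SLC2A1, which encodes the glucose transporter GLUT1, was at 598 then 582 FPKM in wild-type cells, 542 then 363 in clone 1, and 599 then 409 in clone 2. It had the highest level of all recognised members, and its control libraries in the 3 lines lay between 542 and 599 FPKM. Of 35 measured glycolysis and hypoxia genes it alone was past 0.5 below wild type, with none above, against 0.676% and 0.437% of all measured genes. At 0.25 it was 2 below and 0 above, against 3.98% and 2.31%. The list's median response was 0.19 in wild type, 0.12 in clone 1 and -0.08 in clone 2. HMOX1, haem oxygenase, was at 7.89 then 8.59 FPKM in wild-type cells, 9.53 then 5.64 in clone 1, and 5.76 then 4.13 in clone 2. IMMP2L, a peptidase of the inner mitochondrial membrane, was at 5.83 then 5.97 FPKM in wild-type cells, 6.59 then 4.29 in clone 1, and 6.88 then 4.08 in clone 2.

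**Figure D3:**
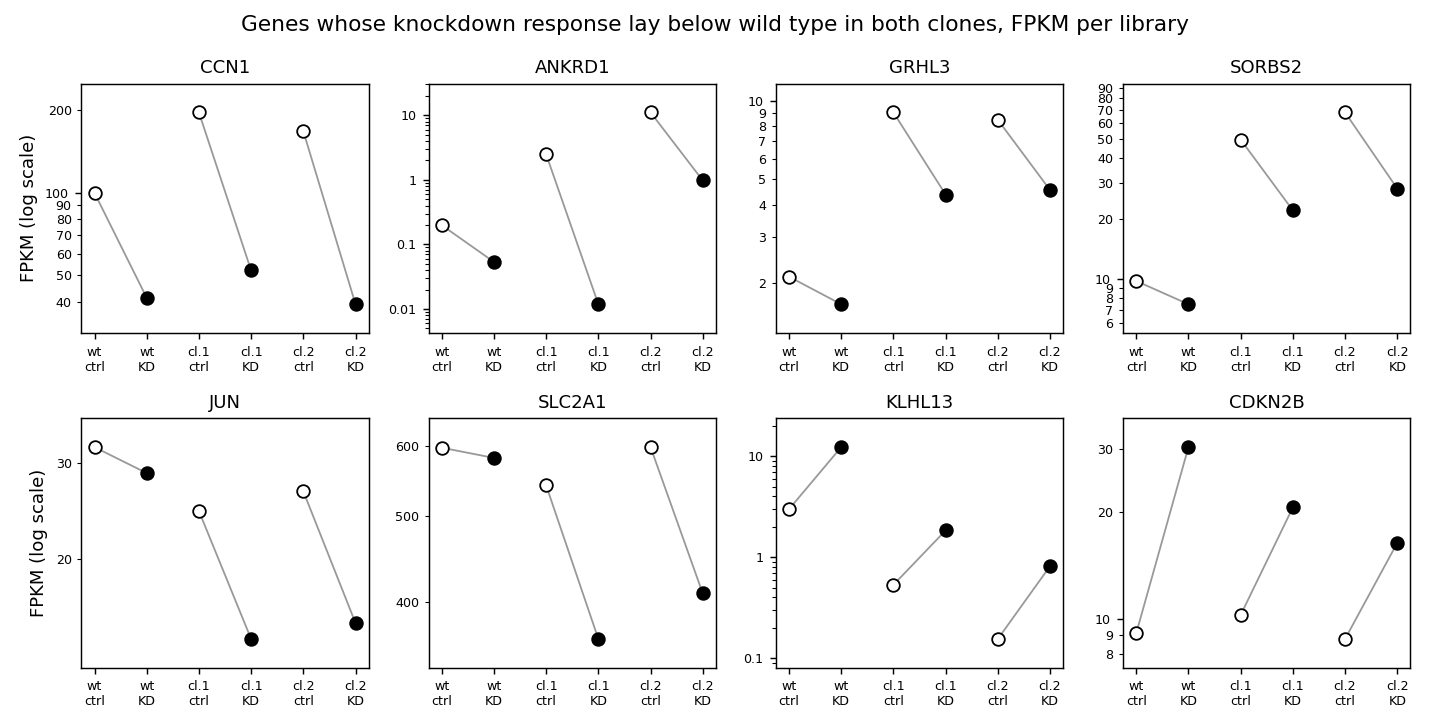
FPKM on a log axis in the 6 libraries for 8 genes whose response lay below wild type in both clones, open circles for control siRNA and filled circles for PRL1-siRNA. CCN1 starts higher in the clones and ends at a like level, JUN and SLC2A1 are nearly flat in wild type and lower after knockdown in both clones, and KLHL13 and CDKN2B are higher after knockdown in each line.

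FGF21, a hormone secreted under endoplasmic reticulum stress, was the member of the stress response list with a larger downward response. It was at 10.6 then 4.00 FPKM in wild-type cells, 8.85 then 1.33 in clone 1, and 6.82 then 1.29 in clone 2, which is -0.86 and -0.55 relative to wild type. The 45 measured genes of that list had a median response of -0.51 in wild type, -0.49 in clone 1 and -0.40 in clone 2. Of them 1 was past 0.5 below wild type and 0 above, against 0.676% and 0.437% of all measured genes. At 0.25 the counts were 4 above and 2 below, against 2.31% and 3.98% of all measured genes. HSPA5, the main chaperone of the endoplasmic reticulum, was one of the 4, named after its values were seen. It was at 723 then 222 FPKM in wild-type cells, 540 then 198 in clone 1, and 361 then 150 in clone 2, so its downward response was smaller in the clones by 0.26 and 0.44 log2 units.

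Smaller responses in the clones included genes that were lower after knockdown mainly in wild type. NDUFS4, an accessory subunit of respiratory complex I, was at 23.5 then 12.3 FPKM in wild-type cells, 13.3 then 14.8 in clone 1, and 10.4 then 12.4 in clone 2. The wild-type control library stood apart, and the other 5 libraries lay between 10.4 and 14.8 FPKM. Its difference of 1.07 thus rests on that library, with an SE of 0.26 without the block and of 0.08 with it (limma, adjusted p = 0.102 with the block). MT1E, a metal-binding metallothionein, was at 14.3 then 6.42 FPKM in wild-type cells, 4.63 then 4.53 in clone 1, and 17.4 then 18 in clone 2, so the clones differed in level and were level under both siRNAs. TSC22D3, a glucocorticoid-induced regulator of inflammation, was at 11.6 then 8.71 FPKM in wild-type cells, 7.17 then 8.26 in clone 1, and 6.97 then 9.17 in clone 2. TNFSF10, the death ligand TRAIL, was at 9.93 then 6.29 FPKM in wild-type cells, 10.4 then 11.1 in clone 1, and 17.8 then 18.4 in clone 2. PMAIP1, which encodes the pro-apoptotic protein NOXA, was mixed, at 5.98 then 3.24 FPKM in wild-type cells, 1.41 then 3.85 in clone 1, and 4.96 then 6.04 in clone 2.

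Interferon response genes formed the list with the most genes past 0.25 above wild type in both clones. These genes encode antiviral proteins and their regulators and are switched on by interferon signalling. Of 33 measured, 4 were past 0.5 above wild type in both clones and 0 below, against 0.437% and 0.676% of all measured genes. At 0.25 it was 19 above and 0 below, against 2.31% and 3.98% of all measured genes. The median response was -0.48 in wild type, -0.20 in clone 1 and -0.03 in clone 2, and the median difference was 0.32 for clone 1 and 0.39 for clone 2. Responses of at most -0.25 were seen in 21 of the 33 in wild type, 15 in clone 1 and 10 in clone 2, and responses of at least 0.25 in 4, 7 and 7. MX1, an antiviral GTPase, was at 25.7 then 12.9 FPKM in wild-type cells, 11.4 then 8.16 in clone 1, and 15.6 then 14.0 in clone 2. IFI44L, an interferon-induced protein, was at 19.3 then 8.28 FPKM in wild-type cells, 12.9 then 8.43 in clone 1, and 18.1 then 13.8 in clone 2. Outside the list, RTP4, an interferon-induced chaperone of receptors, was at 9.76 then 4.35 FPKM in wild-type cells, 9.09 then 7.36 in clone 1, and 12.4 then 12 in clone 2. These 3 genes were lower after knockdown in each line, and least so in clone 2.

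ISG20, an antiviral exonuclease of the same list, had opposite responses. It was at 2.78 then 1.63 FPKM in wild-type cells, 1.91 then 2.83 in clone 1, and 2.72 then 3.98 in clone 2. The difference was 0.93 ± 0.35 (SE, limma), and its highest value was under 5 FPKM. Counts for the whole list at 0.25 stayed at 19 and 0 with median centring, with quantile normalization and with a pseudocount of 0.1. Under those settings the median difference was between 0.32 and 0.33 in clone 1 and between 0.39 and 0.45 in clone 2. All of these values share the 1 wild-type pair, and no test over the list was made.

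**Figure D4:**
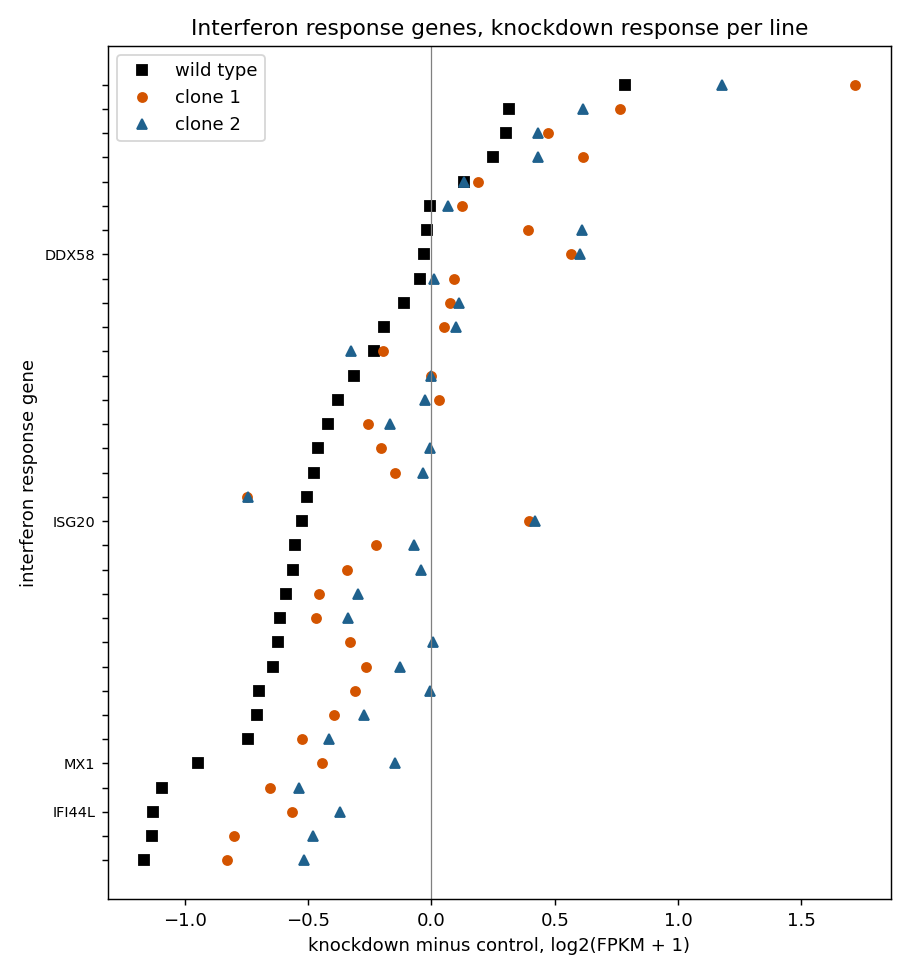
Knockdown response on the log2(FPKM + 1) scale for the 33 measured interferon response genes, ordered by the wild-type value, with squares for wild type, circles for clone 1 and triangles for clone 2; names are given for the 4 genes past 0.5 in both clones. Most wild-type squares lie left of both clone symbols, and the list medians are -0.48, -0.20 and -0.03.

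A few genes of antigen presentation lay above wild type by less. Of 14 measured genes of MHC class I and peptide loading, 4 were past 0.25 above wild type and 0 below, against 2.31% and 3.98% of all measured genes, with none past 0.5. B2M, the light chain of MHC class I, was at 679 then 743 FPKM in wild-type cells, 750 then 1050 in clone 1, and 949 then 1344 in clone 2. NLRC5, the transactivator of class I genes, was at 1.38 then 1.17 FPKM in wild-type cells, 1.05 then 1.67 in clone 1, and 2.21 then 2.92 in clone 2. Among 10 MHC class II genes, which present peptides to helper T cells, 1 was past 0.25 above wild type, DLA-DMA, which helps to load class II molecules. It was at 5.07 then 9.18 FPKM in wild-type cells, 6.73 then 15.5 in clone 1, and 5.36 then 13.2 in clone 2, higher after knockdown in each line.

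Cytokine and chemokine genes had 4 of 15 measured members past 0.5 above wild type, CCL5, IL6, IL34 and TNFSF10, and 0 below, against 0.437% and 0.676% of all measured genes. With a pseudocount of 0.1 IL34 was no longer past it, and the list's median difference in clone 2 went from 0.13 to -0.04. The median response was 0.45 in wild type, 1.45 in clone 1 and 0.59 in clone 2, so the clones were further from each other than clone 2 was from wild type. Of 29 measured genes listed as NF-κB targets, 0 were past 0.5 in either direction. At 0.25 it was 1 each way, against 2.31% above and 3.98% below of all measured genes. CCL5 and IL6 were counted in the cytokine list and not in this one, although NF-κB switches on such genes. The median response of the NF-κB list was 0.28 in wild type, 0.36 in clone 1 and 0.28 in clone 2. BIRC3, an inhibitor of apoptosis, was at 3.92 then 4.97 FPKM in wild-type cells, 9.79 then 25.1 in clone 1, and 14.3 then 24.2 in clone 2. PLAU, the urokinase gene, was at 11.4 then 8.65 FPKM in wild-type cells, 32.9 then 19.2 in clone 1, and 37.6 then 20.6 in clone 2. Both of these genes were higher in all clone libraries than in either wild-type library.

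In 14 genes with recognised names the level was higher after knockdown in wild type and the clones' response was smaller in size. The clones did not all rise, and some genes, FOXQ1 among them, were slightly lower after knockdown in both. CDKN2B, which encodes the cell cycle inhibitor p15, was at 9.13 then 30.4 FPKM in wild-type cells, 10.3 then 20.6 in clone 1, and 8.80 then 16.4 in clone 2. The control libraries were alike, and the wild-type knockdown library was the highest. Its difference was -0.75 ± 0.25 (SE, limma). AQP3, a water channel of the collecting duct, was at 30.9 then 63.1 FPKM in wild-type cells, 14.6 then 18.6 in clone 1, and 6.76 then 8.74 in clone 2. Its control libraries were far apart in the 3 lines, and the knockdown was 2.04 times the control in wild type and 1.27 and 1.29 times in the clones. FOXQ1, a forkhead transcription factor, was at 22.3 then 33.6 FPKM in wild-type cells, 20.1 then 18.9 in clone 1, and 11.8 then 11.2 in clone 2. TMA7, linked to the translation machinery, was at 5.77 then 10.5 FPKM in wild-type cells, 8.47 then 7.61 in clone 1, and 9.17 then 9.97 in clone 2.

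In some genes of this class, FGL1 and KLHL13 among them, the clones were near the lower end of the scale. FGL1, a secreted fibrinogen-like protein, was at 1.49 then 5.96 FPKM in wild-type cells, 0.336 then 0.956 in clone 1, and 0.917 then 1.55 in clone 2. Its ratios of knockdown to control were 3.99, 2.84 and 1.69. KLHL13, an adaptor of a ubiquitin ligase, was at 2.98 then 12.2 FPKM in wild-type cells, 0.533 then 1.84 in clone 1, and 0.155 then 0.815 in clone 2. Here the ratios were 4.11, 3.45 and 5.25, and with a pseudocount of 0.1 the differences from wild type were -0.39 and -0.16, no longer past 0.5.

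GK and THSD8 had opposite responses, higher after knockdown in wild type and lower in both clones. GK, glycerol kinase, was at 44.1 then 53.6 FPKM in wild-type cells, 49.5 then 38.0 in clone 1, and 60.4 then 45.8 in clone 2. The difference of -0.66 had an SE of 0.25 without the block and of 0.06 with it (limma, adjusted p = 0.165 with the block). THSD8 was at 6.64 then 8.41 FPKM in wild-type cells, 7.0 then 5.67 in clone 1, and 6.56 then 5.33 in clone 2, a difference of -0.56 ± 0.13. In both genes each single response was small, with ratios between 0.758 and 1.27. ID1, an inhibitor of basic helix-loop-helix factors, came close to this class. It was at 52.3 then 63.5 FPKM in wild-type cells, 70.0 then 56.4 in clone 1, and 44.2 then 37.1 in clone 2, with the response of clone 2 (-0.25) just under the size required.

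The remaining lists held few or no members past the threshold. For magnesium transport and PRL genes (20 measured), 0 were past 0.25 in both clones. CNNM4, which encodes a PRL-binding magnesium transporter, had differences of -0.25 and -0.23, and NIPA1, a magnesium transporter, of -0.23 and -0.26. Counts at 0.5 were 0 above and 0 below for apoptosis and lytic cell death (28 measured), cholesterol synthesis (27), G2 and mitosis (32), S phase (35), ribosome biogenesis (30), respiratory chain (27), lysosome (28), epithelial junctions (31) and kidney markers (10). Median differences in these lists were between -0.12 and 0.11. Medians for G2 and mitosis were -0.31 in wild type, -0.22 in clone 1 and -0.33 in clone 2. One member was past 0.5 in the lists of matrix proteases (15 measured, MMP13 above), p53 targets (23, PMAIP1 above), oxidative stress (25, HMOX1 below), immediate early genes (30, JUN below) and renal tubule transporters (13, AQP3 below). Of 23 mesenchymal and TGF-β target genes, 2 were above (TAGLN and ACTA2) and 1 below (ID1) at 0.5, against 0.437% and 0.676% of all measured genes. At 0.25 it was 2 above and 5 below, against 2.31% and 3.98%. The leukocyte, fibroblast and endothelial lists had 2, 1 and 1 measured genes, and 0 of them were past 0.25.

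**Figure D5:**
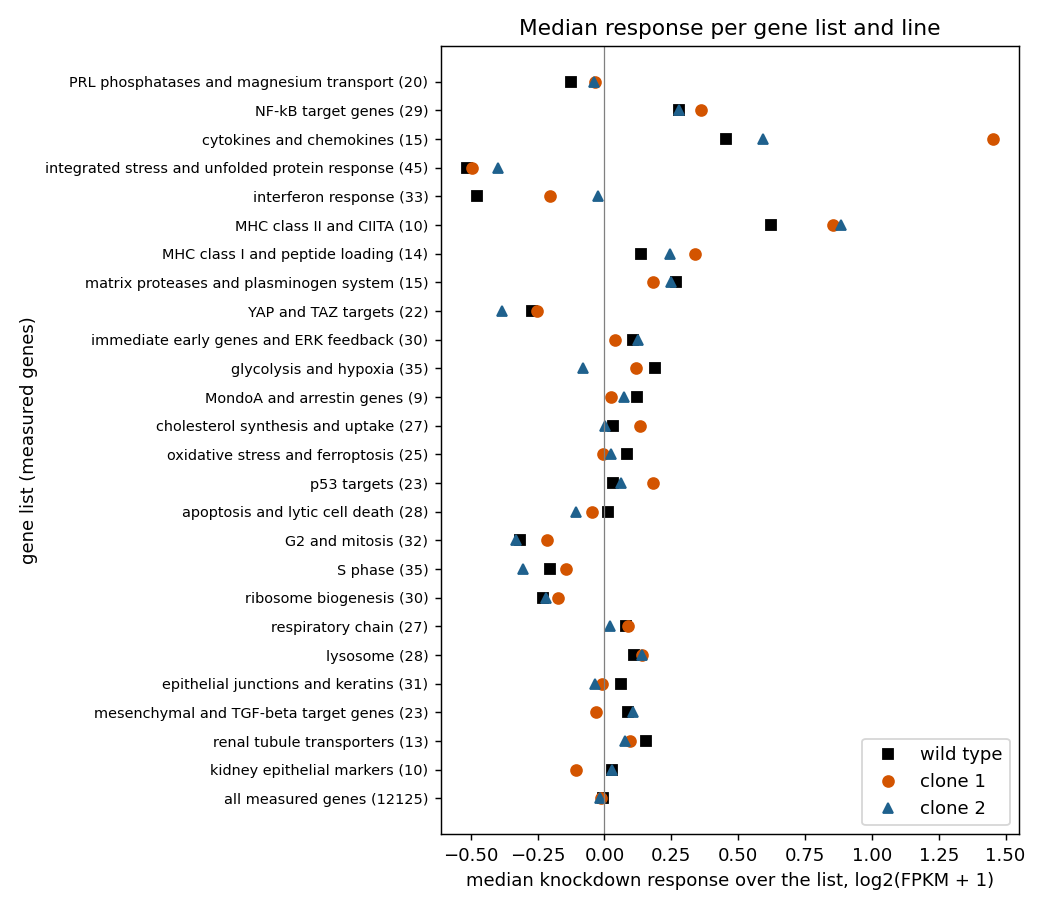
Median knockdown response on the log2(FPKM + 1) scale for each gene list with at least 9 measured genes, with the number measured in parentheses and squares for wild type, circles for clone 1 and triangles for clone 2. The 3 lines lie close together for stress response, cell cycle and lysosome genes. Wild type lies to the left of both clones for interferon response genes and, among other lists, cytokine, MHC class I and MHC class II genes. Median differences in clones 1 and 2 are 0.32 and 0.39 for interferon response, and 0.11 and 0.19 for MHC class II.

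Among the genes with the smallest unadjusted p were 3 that did not reach 0.5. NDUFAF2, an assembly factor of complex I, was at 75.0 then 56.7 FPKM in wild-type cells, 103 then 57.9 in clone 1, and 99.3 then 56.2 in clone 2, a difference of -0.42 ± 0.10 (SE, limma). The 3 knockdown libraries lay together and the controls of both clones were higher. AAMDC was at 20.6 then 18.7 FPKM in wild-type cells, 15.8 then 18.9 in clone 1, and 15.4 then 19.4 in clone 2. HAGHL was at 9.14 then 13.2 FPKM in wild-type cells, 10.1 then 10.5 in clone 1, and 10.6 then 10.6 in clone 2. All 3 were under 0.5 in size in both clones.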

How the data were processed

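RNA-seq of 6 libraries of MDCK cells was analysed, with groups and clone numbers taken from the labels. The deposited values are FPKM, computed by the authors for each symbol. Tools named in the submitters' processing notes are Cufflinks 2.2.1, HISAT2 2.1.0 and Cuffdiff. Build, annotation and strand setting were not given in the sources used here, and overlapping genes may share fragments. RefSeq names and biotypes (assembly UU_Cfam_GSD_1.0) matched 38797 of 41401 symbols and 11873 of the 12125 measured genes. No 2 libraries held identical values. Relative depth came from ratios of values below 0.1 FPKM, of which 24.3% to 27.3% fell on ratios of small whole numbers within 0.01 log2 units, so counts were not rebuilt.

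Values were analysed as log2(FPKM + 1), which understates changes of low genes. The interaction was fitted with limma 3.58.1 in R 4.3.3, with moderated variances, an intensity trend and Benjamini-Hochberg adjustment at 0.05. The fit without clone has 2 residual degrees of freedom, and with the clone as replicate block 1. Control and knockdown libraries of a clone deviated from their group means together (r = 0.595 across genes). Whether libraries came from separate cultures is not in the labels, and p-values therefore reflect only spread among these samples. The procedure was run on simulated data to check that planted differences were returned at their size. The simulation held no differences between the clones, so it does not show error rates for these libraries.

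Members, gene lists (28), named genes and thresholds were chosen with earlier results of these data known. Named by rule were PTP4A1 and PTP4A2, the first 6 genes per class and direction with at least 5 FPKM in a library, up to 4 members per list (2 where none passed) and the 5 smallest unadjusted p per direction. Other names were chosen after their values were seen, and some genes the rule names are not reported here. Alternatives were another pseudocount, filters, scalings, thresholds, the block and leaving out each mutant library.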

Additional observations from a re-analysis of the deposited data

Results flagged for a closer look

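In 3 named genes both clones changed one way after PRL1 knockdown and wild type the other. The difference of clones minus wild type was -0.66 log2 units for GK, -0.56 for THSD8 and 0.93 for ISG20. None passed in limma with or without the clone as block, and wild type is 1 pair of libraries. TXNIP was the 1 gene whose difference passed in limma with the clone as block, at 2.27 log2 units, higher in 2 of 2 clones.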

How the results depend on the processing

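The count of genes called by limma for the difference was 0, and it stayed at 0 with a pseudocount of 0.1, a mean of at least 5 FPKM, median centring, quantile normalization and without each mutant library in turn (0 to 0). It was 1 with the clone as replicate block (TXNIP), 4 without an intensity trend (LOC119864349, LOC119864812, LOC119870609 and LOC119872389) and 157 with no filter. Those 4 loci were above 0 FPKM only in the wild-type control library. They passed the filter through that library alone, and their values in the clones have no spread. Paired fits added after the data were seen called 3 genes when means had to reach 5 FPKM (TXNIP, MIR8800 and LOC102156026), 7 without an intensity trend, 2 with a pseudocount of 0.1 (TXNIP and MIR8800) and 0 with no filter, where TXNIP had an adjusted p of 0.189. Genes above and below wild type, then opposite, larger and smaller responses, numbered 53, 82, 18, 41 and 60. In the same order they were 91, 164, 40, 84 and 110 with a pseudocount of 0.1, 18, 42, 8, 24 and 24 with a mean of at least 5 FPKM, and 21, 19, 9, 9 and 14 at a difference of at least 1. With a threshold of 0.25, added later, there were 280 above, 482 below, 300 larger and 366 smaller. With 1 clone alone the counts ran from 143 to 152, 182 to 214, 55 to 69, 159 to 176 and 111 to 121. Of the 135 members, 132 stayed past 0.5 in the same direction with a pseudocount of 0.1, all but MMP13, IL34 and KLHL13, and 128 with median centring and 131 with quantile normalization. Mutant libraries were left out without the block, which splits the pair of a clone, so differences in level between the clones enter. The sign of the difference then turned for MMP13 (-0.25 to 3.08), PTP4A2 (-0.18 to 0.33) and GATA3 (-0.64 to 0.33). It also turned for COL5A1 (-0.45 to 0.0557) and FLT1 (-0.25 to 0.33). With pairs kept, on the log2(FPKM + 1) scale, the differences of the 2 clones had the same sign in each of these genes (PTP4A2 0.08 and 0.07). No other of the 72 named differences turned under the scalings, pseudocount and left-out libraries run, and the block changed no other call. Depth is unknown and limits low genes most.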
